A study of Mus musculus with 27 samples.

Results

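The genes described are 38 *Hox* genes of the mouse clusters A to D, taken from the names of the family and not from any measured value, out of 48795 genes listed per library. Cluster A gave 10 of them, cluster B 10, cluster C 9 and cluster D 9. They were measured by bulk RNA-seq in 9 groups of 3 libraries, which follow mouse embryonic stem cells (ESC) towards gonadal progenitors and induced Sertoli-like cells (iSLC). All groups came from a single XY ESC line, clone 7, on an F1 background of C57BL/6 x CBA, which carries the Tesco-CFP reporter of Sertoli cells and R26-rtTA, the activator that doxycycline switches on. ESC were grown in 2i/LIF and moved to knockout serum replacement (KSR) medium before differentiation. EpiSC, the epiblast-like cells, had 60 h of bFGF (12 ng/ml) and Activin A (20 ng/ml) with 1% KSR. M, the early mesodermal cells, had 36 h of bFGF (20 ng/ml), BMP4 (10 ng/ml) and LY294002 (10 µM), which inhibits phosphatidylinositol 3-kinase. The intermediate mesoderm conditions shared bFGF (5 ng/ml) and BMP4 (20 ng/ml). IM1 had nothing further. IM3 also had retinoic acid (RA, 100 nM), IM2 had RA and Activin A (10 ng/ml), IM4 had RA and CHIR99021 (0.3 µM), an inhibitor of GSK3, and IM5 had RA, Activin A and CHIR99021 at these doses. iSLC were IM3 cells infected with lentiviruses that express *Nr5a1* and *Dmrt1* under doxycycline, kept in a Sertoli medium and sorted for CFP. That medium held Activin A, at a higher dose than in IM2, with EGF, FSH, FGF9, a prostaglandin and testosterone. RA and BMP4 are not listed for it.

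*Hox* genes encode homeodomain transcription factors that give cells of the trunk and limbs their position along the body axis. In each cluster the genes lie in the order in which they are used: genes at the 3′ end, with low paralogue numbers, come on early and reach far forward in the embryo, and genes at the 5′ end come on later and mark the lumbar, sacral and tail levels. RA acts on 3′ genes, and Wnt, FGF and the caudal factors of the *Cdx* family act on central and posterior ones, whereas GDF and Activin-type ligands are known for the passage from trunk to tail. Posterior genes of group 11 are required in the metanephric kidney, and the gonad forms from intermediate mesoderm further forward. For the description, the genes were put into paralogue groups 1 to 3 (7 genes), 4 to 8 (15 genes) and 9 to 13 (16 genes).

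The labels were first set against genes that mark them. *Nr5a1* stood at 100.3, 94.0 and 87.2 TPM in the 3 iSLC libraries and at no more than 0.15 in any other library, and *Dmrt1* at 219, 228 and 192 TPM in iSLC against 0.36, 0.65 and 0.34 in IM3. TPM, the unit of levels used here, is scaled by transcript length and library size and allows genes to be compared with each other. Of 4 markers of intermediate mesoderm, 3 were at 1 TPM or more in all libraries of IM1 and of IM2 and 1 in those of IM3. *Wt1* rose in IM3 against IM1, from 6.39 ± 0.866 to 149 ± 14.4 TPM (SD, n = 3), *Osr1* fell from 3.49 ± 0.436 to 1.11 ± 0.321 and *Lhx1* from 3.44 ± 0.855 to 0.443 ± 0.00577, and *Pax2* stayed under 1 TPM in every group. Of 7 Sertoli genes, 5 were at 1 TPM or more in all iSLC libraries, and the 7 summed to 313 to 356.5 TPM against 40.7 to 52.4 in IM3. The 2 that rose from IM3 were *Nr5a1* and *Dmrt1*, which the lentiviruses carry. *Sox9*, which drives the Sertoli fate, was at 24.8 ± 1.6 TPM in iSLC and 40.0 ± 5.51 in IM3, and the hormone gene *Amh* at 0.56 ± 0.0781 and 0.44 ± 0.12. The libraries held from 35923040 to 84876603 expected counts. The groups also differed in features that the labels do not name: a sum of 6 red-cell genes was 3.89 to 27.1 CPM (counts scaled to library size) in ESC, M, IM3 and IM4 and 0.382 to 1.39 in the other groups, and the trend of counts with GC content ran from -0.52 to -0.07 (log2) in the former and from -0.16 to 0.68 in the latter. The comparisons of EpiSC with ESC, M with EpiSC, IM1 with M, IM3 with IM1, IM2 with IM3, IM5 with IM4 and iSLC with IM3 cross this division, which cannot be told apart from the conditions there. In bulk samples, fewer cells that use a gene and less of its RNA per cell cannot be told apart either. The study calls the 3 libraries of a group biological replicates. All derive from 1 ESC line, so p-values measure the spread between samples of that line.

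On GRCm38 the cluster A genes lay between 52162417 and 52260880 of chromosome 6, cluster B between 96194316 and 96368256 of chromosome 11, cluster C between 102921103 and 103036852 of chromosome 15, and cluster D between 74668310 and 74765142 of chromosome 2. Several genes share exon bases with others. *Hoxb3* overlaps the antisense gene *Hoxb3os* over 52.9% of its exon bases, *Hoxb2* overlaps the same gene over 27.3%, *Hoxa11* overlaps *Hoxa11os* over 800 of its exon bases and *Hoxa7* overlaps *Hoxaas3* over 20.4%. *Hoxa3* shares 25.4% of its exon bases with 4 genes of the opposite strand, *Hoxa4* shares 255 bases with *Gm29430*, also opposite, *Hoxa2* shares 267 bases with *Gm28308* and *Hoxd11* 10.8% with *Gm28309*, both on the same strand. *Hoxd3* and *Hoxd4* share 62.3% and 52.3% of their exon bases with each other or with *Gm28230* on the same strand. *Hoxc5* and *Hoxc10* share 166 exon bases with each other, and *Hoxd10* shares 5.7% with *Gm28309*, again on the same strand. It is not stated if strand was used in counting, and reads of opposite-strand partners cannot then be told apart. Reads from bases shared on the same strand cannot be told apart by strand in any case. The values of all these genes are therefore uncertain.

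RefSeq windows from 250 bases before to 50 after a start site (GRCm38.p6) were at hand for 22 of the 38 genes, in 24 windows. There were none for *Hoxa4*, *Hoxb2*, *Hoxb3*, *Hoxb5*, *Hoxb6*, *Hoxb7*, *Hoxb9*, *Hoxb13*, *Hoxc5*, *Hoxc6*, *Hoxc8*, *Hoxc9*, *Hoxc10*, *Hoxc11*, *Hoxc12* and *Hoxc13*. The windows were searched on both strands for AGGTCA (the half-site of RA receptors), TTTATG (letters bound by CDX factors), TGACAG (MEIS), TGATNNAT (a TALE with a Hox protein) and TATAAA (the TATA box). The RA receptor half-site was in windows of 7 of the 22 genes (*Hoxa5*, *Hoxb4*, *Hoxc4*, *Hoxd3*, *Hoxd4*, *Hoxd8* and *Hoxd10*) and in 16.3% of all 32851 windows, and the CDX letters in windows of 5 genes and in 11.9% of all. The TALE and Hox letters were in windows of 4 genes and in 8.85% of all, the MEIS letters in windows of 2 genes and in 19.2% of all, and the TATA box in windows of 4 genes and in 13.6% of all. The median number of CpG dinucleotides was 14.5 in the *Hox* windows and 7 in all windows. Of the 5 windows below, those of *Hoxa5* and *Hoxb4* belong to genes that were higher with RA, those of *Hoxa11* and *Hoxd11* to genes that were lower with RA and higher with Activin A, and that of *Hoxb1* to the most 3′ gene of its cluster, which was highest in M. *Hoxa2* and *Hoxa3* were also higher with RA, and their windows held no AGGTCA. Of the other genes with these letters, *Hoxd10* was lower with RA, and *Hoxc4*, *Hoxd3*, *Hoxd4* and *Hoxd8* were called neither higher nor lower. *Hoxd11* had 2 windows, of which the one at the more 3′ start is shown. Capitals mark any of the 5 motifs, read 5′ to 3′ on the strand of the gene, and the start site is at base 251.
*Hoxa5*, minus strand, chr6:52204538-52204837: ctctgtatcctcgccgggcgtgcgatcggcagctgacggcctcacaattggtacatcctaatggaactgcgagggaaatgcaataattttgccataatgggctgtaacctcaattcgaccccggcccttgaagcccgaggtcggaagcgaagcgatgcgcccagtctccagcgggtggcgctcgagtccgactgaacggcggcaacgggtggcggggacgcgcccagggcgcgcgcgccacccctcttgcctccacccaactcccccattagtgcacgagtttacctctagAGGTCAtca
*Hoxb4*, plus strand, chr11:96318017-96318316: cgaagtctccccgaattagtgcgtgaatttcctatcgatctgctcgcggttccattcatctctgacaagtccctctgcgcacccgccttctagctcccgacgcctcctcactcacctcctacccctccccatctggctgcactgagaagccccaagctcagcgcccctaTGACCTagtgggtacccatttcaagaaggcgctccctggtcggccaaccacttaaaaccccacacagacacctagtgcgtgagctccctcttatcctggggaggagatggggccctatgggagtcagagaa
*Hoxb1*, plus strand, chr11:96365508-96365807: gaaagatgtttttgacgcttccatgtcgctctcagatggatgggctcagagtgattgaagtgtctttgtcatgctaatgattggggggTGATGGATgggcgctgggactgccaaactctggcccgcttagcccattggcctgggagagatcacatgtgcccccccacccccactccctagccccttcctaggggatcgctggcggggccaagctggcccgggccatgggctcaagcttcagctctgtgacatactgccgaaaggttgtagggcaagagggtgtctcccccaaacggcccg
*Hoxa11*, minus strand, chr6:52245761-52246060: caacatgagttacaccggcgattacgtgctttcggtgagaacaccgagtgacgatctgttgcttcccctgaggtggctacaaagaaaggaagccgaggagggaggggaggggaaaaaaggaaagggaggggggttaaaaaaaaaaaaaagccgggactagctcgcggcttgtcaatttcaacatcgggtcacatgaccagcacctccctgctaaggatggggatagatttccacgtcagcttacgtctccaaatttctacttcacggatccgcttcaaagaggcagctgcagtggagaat
*Hoxd11*, plus strand, chr2:74682073-74682372: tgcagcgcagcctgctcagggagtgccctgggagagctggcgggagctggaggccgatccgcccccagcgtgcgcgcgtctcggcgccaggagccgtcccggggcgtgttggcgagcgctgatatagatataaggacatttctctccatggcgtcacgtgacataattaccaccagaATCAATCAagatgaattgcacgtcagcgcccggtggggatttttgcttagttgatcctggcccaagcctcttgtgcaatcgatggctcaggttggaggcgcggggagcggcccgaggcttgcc
The *Hoxa11* window held none of the 5 motifs. In *Hoxa5* the AGGTCA letters lay past the start site, and in *Hoxb4* they lay before it and read on the opposite strand. A match is a description of letters and not of binding.

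The clusters were nearly silent in pluripotent cells, opened in M, and took on different profiles in the intermediate mesoderm conditions. Members at 1 TPM or more in all 3 libraries numbered 7 of 38 in ESC, 0 in EpiSC, 20 in M, 30 in IM1, 28 in IM2, 30 in IM3, 30 in IM4, 29 in IM5 and 30 in iSLC. The summed level of the 38 genes was 22.1 ± 1.41 TPM in ESC (SD, n = 3), came down to 8.43 ± 0.494 TPM in EpiSC and stood at 96.3 ± 2.37 TPM in M. The sum then reached 372 ± 9.06 TPM in IM1, 210.0 ± 4.12 in IM3 and 376 ± 9.16 in iSLC. Of the 30 genes on in IM1 and the 30 on in IM3, 26 were the same. Groups 9 to 13 made up 56.5% ± 1.17 of the summed TPM in IM1 (SD, n = 3), 44.2% ± 1.55 in IM2 and 53.4% ± 3.66 in IM5, but 20.8% ± 1.68 in IM3, 22.2% ± 1.59 in IM4 and 17.5% ± 0.621 in iSLC.

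The 5′ limit of what was on also differed between clusters and conditions, read as the most 5′ gene at 1 TPM or more in all 3 libraries. In ESC these limits were *Hoxa7*, *Hoxb9* at 1, 1.21 and 1.31 TPM and *Hoxd13* at 1.32, 1.29 and 1.06 TPM, with nothing on in cluster C, and *Hoxa4* and *Hoxa5* were also on there. In cluster A the limit was *Hoxa13* in M, in all IM conditions and in iSLC, with 5.26, 2.69 and 3.08 TPM in IM4. In cluster B it was *Hoxb9* from M onwards, at 4.05, 4.25 and 3.67 TPM in M, 5.29, 5.48 and 6.15 in IM1, 2.42, 2.35 and 2.33 in IM2, 2.79, 2.46 and 3.26 in IM3, 3.2, 2.59 and 3.18 in IM4 and 9.33, 10.1 and 8.67 in iSLC. The one exception was IM5, where *Hoxb13*, a tail gene, was on at 1.2, 1.37 and 1.7 TPM. IM2 came close, with *Hoxb13* at 0.95, 1.49 and 1.46 TPM.

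In cluster C the limit was *Hoxc10* in M (1.18, 1.06 and 1.06 TPM), IM2, IM3, IM4 (2.09, 1.84 and 1.57 TPM) and iSLC (3.01, 3.06 and 2.74 TPM). It was *Hoxc13*, which also acts in hair and nail, in IM1 (2.88, 2.01 and 2.72 TPM) and IM5 (1.08, 1.22 and 1.17 TPM). In cluster D it was *Hoxd10* in M (1.26, 1.52 and 1.75 TPM), *Hoxd11* in IM3 and iSLC (2.91, 3.19 and 2.44 TPM in iSLC), and *Hoxd13* in the others, at 3.18, 3.24 and 2.74 TPM in IM2, 1.45, 1.21 and 1.53 in IM4 and 3.86, 4.13 and 5.88 in IM5. In IM3 *Hoxd13* lay around the threshold, at 1.12, 0.97 and 1.83 TPM. *Hoxc12* and *Hoxd12* stayed under 1 TPM in every library.

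**Figure D1:**
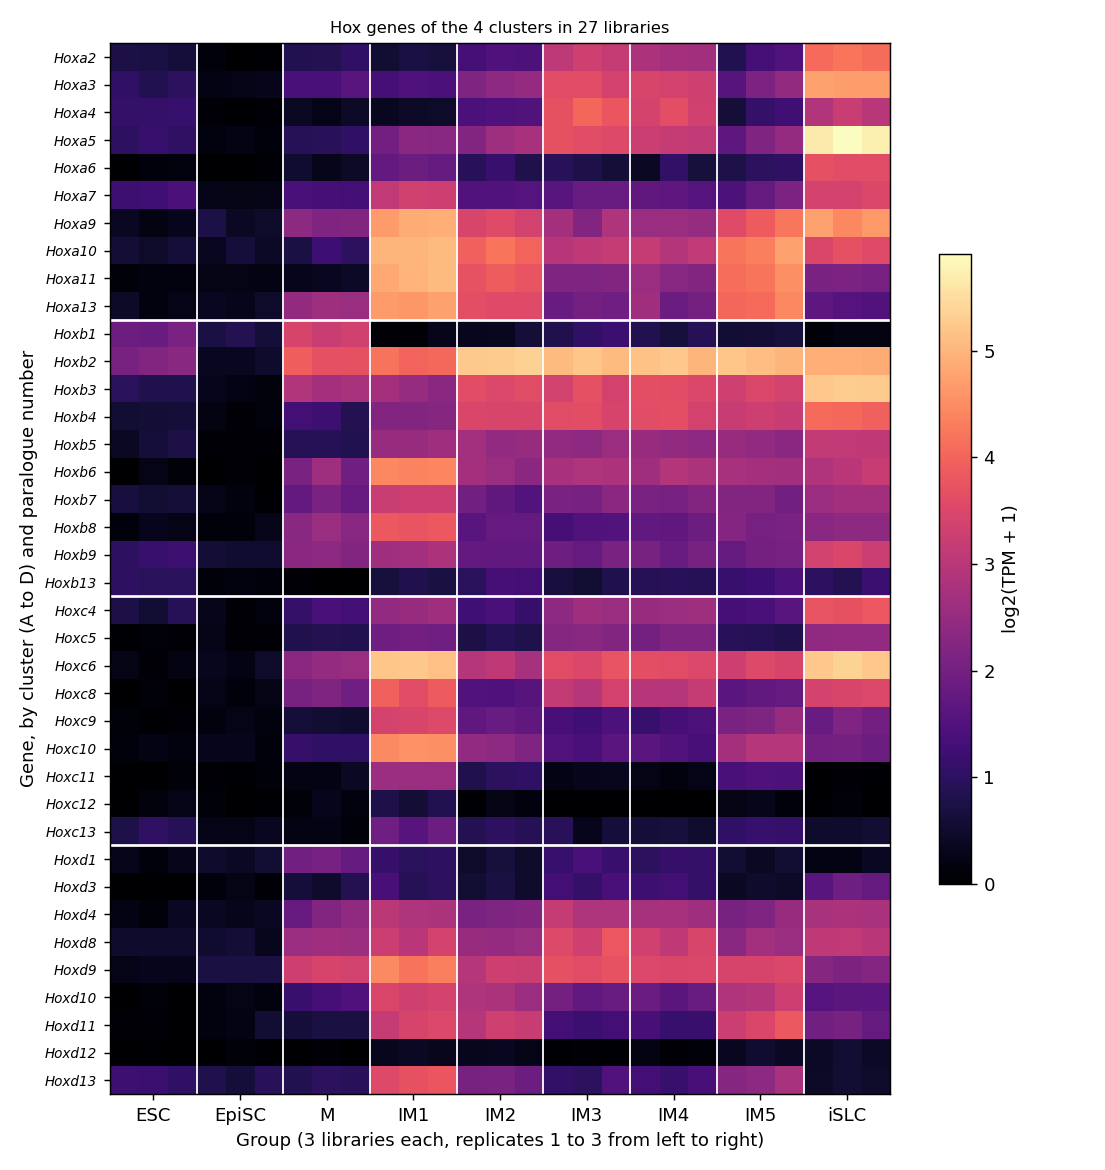
Level of each of the 38 genes (rows, by cluster and paralogue number) in each of the 27 libraries (columns, by group), as log2(TPM + 1), with brighter colours for higher levels. ESC and EpiSC are dark, and IM1 is bright in the lower part of cluster A and in the middle of cluster C, from *Hoxc6* to *Hoxc10*. IM3 and IM4 are bright in the upper part of clusters A and B, and iSLC is brightest at *Hoxa5*, *Hoxc6* and *Hoxb3*.

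**Figure D2:**
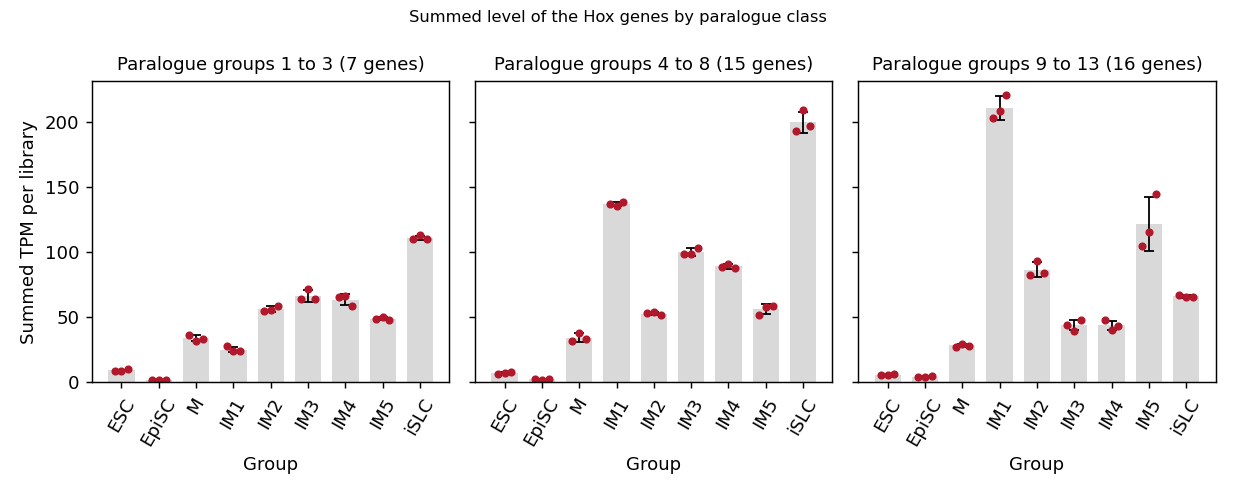
Summed TPM of the genes of paralogue groups 1 to 3, 4 to 8 and 9 to 13 in each group, with a point for each library, bars for the mean and whiskers for the SD (n = 3). The sum of groups 9 to 13 is highest in IM1, with a mean of 210 TPM, and is 43.7 in IM3, whereas the sums of groups 1 to 3 and 4 to 8 are highest in iSLC.

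From ESC to EpiSC, 3 members fell and 0 rose. Differentially expressed (DE) means here that the adjusted p was 0.01 or less, that the level changed 2-fold or more, and that the mean normalized count reached 100 both across the series and in one of the groups under comparison. *Hoxa6*, *Hoxb13*, *Hoxc11*, *Hoxc12*, *Hoxc13*, *Hoxd1*, *Hoxd3* and *Hoxd12* were under that count across the series, so these 8 members could not be called in any comparison. These counts were read against the DE share of the 20839 genes tested, which was 4.32% lower and 3.75% higher. *Hoxb2* stood at 3.22, 3.61 and 3.97 TPM in ESC and at 0.28, 0.29 and 0.41 in EpiSC, with a log2 fold change of -3.33 (SE 0.18, adjusted p = 1.28e-14). *Hoxb1* went from 2.77, 2.61 and 3.35 to 0.65, 0.83 and 0.54 TPM, with a log2 fold change of -2.08 (SE 0.23, adjusted p = 1.42e-08). *Hoxa7* went from 1.33, 1.38 and 1.69 to 0.21, 0.19 and 0.21 TPM, with a log2 fold change of -2.76 (SE 0.21, adjusted p = 1.19e-11), and its call was lost without ESC replicate 3, where the value was -2.67. The libraries of both groups were separate for all 3 genes, though the levels were low. A further 20 members passed the p and fold limits but were under the count minimum. Without that minimum 15 fell and 8 rose, among them *Hoxa4* (-4.51 ± 0.38, log2 fold change ± SE) and *Hoxa5* (-3.10 ± 0.35) on the lower side and *Hoxd9* (1.42 ± 0.20) on the higher side. The shares above hold with the minimum, and the share of all genes tested without it is not given. The red-cell genes were at 3.89 to 27.1 CPM in ESC and 0.585 to 0.869 in EpiSC, and their part in this result was not tested.

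In M, 17 members rose and 0 fell, where 6.79% of the genes tested were higher and 7.72% lower than in EpiSC. DE members were 4 of the 7 genes of groups 1 to 3, 9 of the 15 of groups 4 to 8 and 4 of the 16 of groups 9 to 13. *Hoxb1*, which acts in the hindbrain and is the most 3′ gene of its cluster, reached its highest level of the series here, at 9.68, 8.35 and 9.03 TPM against 0.65, 0.83 and 0.54 in EpiSC, with a log2 fold change of 3.68 (SE 0.23, adjusted p = 8.00e-14). *Hoxb2* came to 14.1, 11.8 and 12.0 TPM, which was the highest mean level among the members in M. The 3 largest rises were those of *Hoxb6*, from 0, 0.04 and 0.01 to 3.24, 5.15 and 2.84 TPM (log2 fold change 7.06, SE 0.43, adjusted p = 6.87e-14), *Hoxb3* (log2 fold change 5.59, SE 0.17, adjusted p = 3.61e-20) and *Hoxb2* (log2 fold change 5.17, SE 0.15, adjusted p = 1.47e-20). All 3 are genes of cluster B, which held 46.1% ± 2.46 of the summed *Hox* TPM in M (SD, n = 3).

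The order in M did not follow paralogue number alone. *Hoxd9* was at 8.77, 9.72 and 9.19 TPM, and *Hoxa13*, the most 5′ gene of its cluster, which acts in the hindgut, the urogenital tract and the distal limb, stood at 4.53, 5.12 and 4.88 TPM. The 2 members next to it on the 3′ side were lower: *Hoxa11* at 0.25, 0.28 and 0.34 TPM and *Hoxa10* at 0.65, 1.34 and 0.96 TPM. Every M library had *Hoxa13* above *Hoxa9*, *Hoxa10* and *Hoxa11*. *Hoxa13* rose from EpiSC by a log2 fold change of 4.23 (SE 0.17, adjusted p = 1.39e-17), whereas *Hoxa11*, which passed neither the fold nor the p limit, had a log2 fold change of 0.64 (SE 0.27, adjusted p = 0.0360). The other group 13 genes gave no such pattern, with *Hoxb13* at 0.0133, *Hoxc13* at 0.137 and *Hoxd13* at 0.89 TPM as means in M. Calls of *Hoxb1* and *Hoxb4* against EpiSC were lost without M replicate 1, at log2 fold changes of 3.64 and 3.30, and those of *Hoxb7* and *Hoxc4* without M replicate 2, at 4.68 and 3.12, in each case at the count minimum, as the p and fold limits were still passed. Without the count minimum 32 members rose and 1, *Hoxb13*, fell. The shares above hold with that minimum, and the share of all genes tested without it is not given. The sum of the 10 erythroid genes was 42.9 to 80.1 TPM in M and 1.57 to 2.37 in EpiSC, and its part in the result was not tested.

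With bFGF and BMP4 alone (IM1), 20 members rose from M and 1 fell, against 9.72% of the genes tested that were higher and 5.94% that were lower. The rises covered 11 of the 15 genes of groups 4 to 8 and 9 of the 16 of groups 9 to 13, and none of the 7 of groups 1 to 3. *Hoxa11* went from 0.25, 0.28 and 0.34 TPM in M to 27.4, 30.6 and 32.5 in IM1, with a log2 fold change of 6.62 (SE 0.15, adjusted p = 3.79e-23). *Hoxa10* went from 0.65, 1.34 and 0.96 to 31.0, 30.9 and 32.7 TPM, with a log2 fold change of 5.02 (SE 0.17, adjusted p = 3.40e-19), and *Hoxc9* from 0.53, 0.47 and 0.44 to 9.65, 9.86 and 10.6 TPM, with a log2 fold change of 4.29 (SE 0.17, adjusted p = 6.15e-18). These 3 rises were the largest, and the libraries of both groups lay far apart in each. *Hoxb1* alone fell, from 9.68, 8.35 and 9.03 to 0.05, 0.06 and 0.22 TPM (log2 fold change -6.80, SE 0.30, adjusted p = 5.40e-17), a call that was lost without M replicate 1 at a value of -6.76. Other markers moved with IM1 too: the sum of 4 endothelial genes, of which 3 rose, was 51.8 to 64.6 TPM in M and 124.9 to 135.9 in IM1. That of 4 paraxial genes was 59.8 to 77.7 and 12.3 to 16.7, and that of 10 erythroid genes 42.9 to 80.1 and 23.8 to 34.5. These lower sums did not hold for each gene: 2 paraxial genes rose and 1 fell, and 2 erythroid genes rose and 2 fell. The part of these markers in the *Hox* values was not tested.

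The highest members of each cluster in IM1 were *Hoxa10*, *Hoxb6*, *Hoxc6* and *Hoxd9*. *Hoxc6*, a thoracic gene, was the highest of all, at 35.8, 36.7 and 34.2 TPM. *Hoxb6* stood at 20.6, 20.2 and 20.3 TPM and *Hoxd9* at 21.0, 17.2 and 19.1 TPM. Of group 13, *Hoxa13* reached 24.4, 23.8 and 26.1 TPM and *Hoxd13* 10.6, 12.1 and 12.6 TPM, while *Hoxc13* reached only 2.88, 2.01 and 2.72 TPM. *Hoxb13* was at 0.59, 0.77 and 0.63 TPM, under 1 TPM in every library. Among the 3′ genes of cluster A, *Hoxa2* was at 0.48, 0.66 and 0.59 TPM and *Hoxa4* at 0.29, 0.37 and 0.38 TPM, and *Hoxb1*, *Hoxd1* and *Hoxd3* were not at 1 TPM in all libraries either.

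With RA added, *Hoxb4* and 3′ genes of cluster A were higher and 5′ genes of all 4 clusters were lower. In IM3 against IM1, 5 members rose (*Hoxa2*, *Hoxa3*, *Hoxa4*, *Hoxa5* and *Hoxb4*) and 15 fell, where 2.62% of the genes tested were higher and 3.72% lower. The falls comprised 5 genes of groups 4 to 8 and 10 of the 16 genes of groups 9 to 13. *Hoxa4* was at 12.0, 15.2 and 12.8 TPM with RA and 0.29, 0.37 and 0.38 without, with a log2 fold change of 5.14 (SE 0.22, adjusted p = 2.72e-16). *Hoxa2* was at 7.36, 9.01 and 8.01 TPM against 0.48, 0.66 and 0.59 (log2 fold change 3.70, SE 0.21, adjusted p = 4.80e-14), and *Hoxa3* at 11.0, 11.0 and 9.39 against 1.52, 1.78 and 1.67 (log2 fold change 2.59, SE 0.16, adjusted p = 1.98e-13). No library of one condition reached the range of the other for these genes. *Hoxa5* rose less, from 2.97, 4.08 and 3.89 to 12.0, 11.3 and 10.7 TPM (log2 fold change 1.54, SE 0.16, adjusted p = 7.51e-09). *Hoxb4* rose from 3.7, 3.62 and 3.85 to 11.0, 11.4 and 9.78 TPM (log2 fold change 1.44, SE 0.11, adjusted p = 5.60e-11).

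The 3 largest falls were at the 5′ ends. *Hoxc10*, a hindlimb and lumbar gene, went from 21.1, 22.6 and 22.1 TPM in IM1 to 1.87, 1.63 and 2.11 in IM3, with a log2 fold change of -3.65 (SE 0.13, adjusted p = 4.75e-18). *Hoxd13* went from 10.6, 12.1 and 12.6 to 1.12, 0.97 and 1.83 TPM (log2 fold change -3.27, SE 0.19, adjusted p = 6.45e-14), and *Hoxa11* from 27.4, 30.6 and 32.5 to 3.54, 3.47 and 3.6 TPM (log2 fold change -3.18, SE 0.11, adjusted p = 2.44e-18). *Hoxd11*, required with *Hoxa11* in the kidney, fell from 7.99, 9.71 and 10.5 to 1.46, 1.29 and 1.45 TPM (log2 fold change -2.29, SE 0.19, adjusted p = 1.30e-10), and *Hoxa13* from 24.4, 23.8 and 26.1 to 2.58, 3.08 and 2.84 TPM (log2 fold change -3.12, SE 0.12, adjusted p = 3.61e-17). In all 5 genes every IM3 library was below every IM1 library.

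The sign of the change was read along each cluster, and no difference between clusters was tested. In cluster A the log2 fold changes with their SEs were 5.14 ± 0.22 for *Hoxa4*, 1.54 ± 0.16 for *Hoxa5*, -1.89 ± 0.32 for *Hoxa6* (under the count minimum) and -1.79 ± 0.14 for *Hoxa7*, so that the sign changed between *Hoxa5* and *Hoxa6*. In cluster B they were 1.44 ± 0.11 for *Hoxb4*, -0.24 ± 0.12 for *Hoxb5*, which did not pass the test, and -1.84 ± 0.18 for *Hoxb6*. Clusters C and D had falls at the 5′ end and no DE rise at the 3′ end. In cluster C, *Hoxc4* was at 4.37, 4.81 and 5.27 TPM in IM1 and 4.23, 5.26 and 4.85 in IM3, and *Hoxc5* had a log2 fold change of 0.28 ± 0.11, while *Hoxc6* fell (-1.59 ± 0.11) and *Hoxc8* passed only the p limit (-0.81 ± 0.14). In cluster D, *Hoxd1* (0.28 ± 0.23), *Hoxd3* (0.12 ± 0.22), *Hoxd4* (0.06 ± 0.15) and *Hoxd8* (0.10 ± 0.12) did not pass the test, *Hoxd9* passed only the p limit (-0.80 ± 0.0890), and *Hoxd10* fell (-1.93 ± 0.16). *Hoxb2* and *Hoxb3* passed the p limit but not the 2-fold limit (0.96 ± 0.0912 and 0.85 ± 0.10). Of the members under the count minimum, *Hoxc11* (-4.59 ± 0.28), *Hoxc13* (-2.19 ± 0.27) and *Hoxd12* (-3.16 ± 0.65) had negative values past the p and fold limits, *Hoxb13* had -0.23 ± 0.26, and *Hoxc12* was at 0 in all IM3 libraries. *Hoxb1* had a log2 fold change of 3.43 ± 0.35 but was under the count minimum, at 0.76, 1.06 and 1.29 TPM in IM3 and 0.05, 0.06 and 0.22 in IM1.

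**Figure D3:**
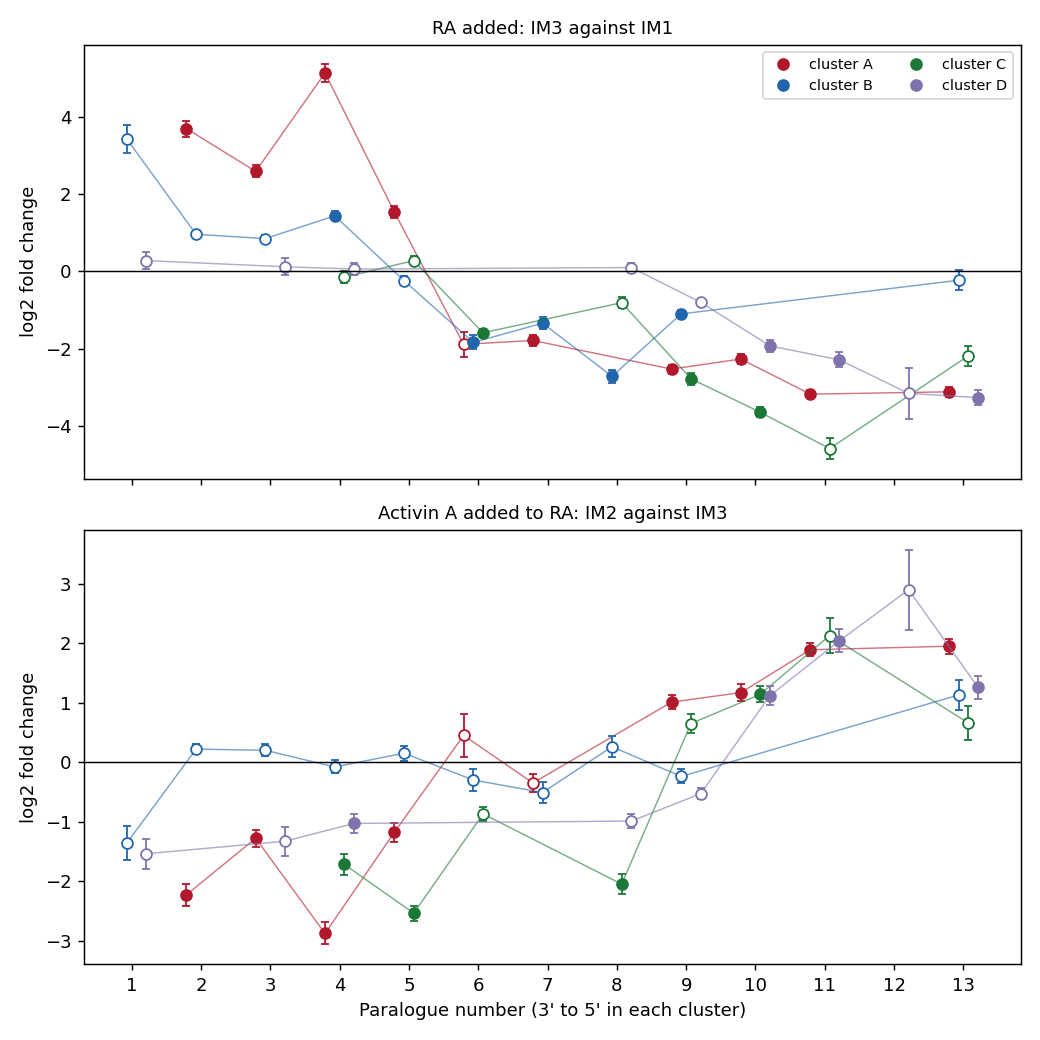
Log2 fold change of the members by paralogue number in IM3 against IM1 (upper panel) and in IM2 against IM3 (lower panel), with SE whiskers, 1 colour per cluster, filled points for DE genes and open points for the others. *Hoxc12*, at 0 in IM3, is left out. With RA the values range from 5.14 at *Hoxa4* to -3.65 at *Hoxc10* among DE genes, and with Activin A added they range from -2.88 at *Hoxa4* to 2.04 at *Hoxd11*. Both panels share the IM3 libraries.

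The highest members of each cluster in IM3 were *Hoxa4*, *Hoxb2*, *Hoxc6* and *Hoxd9*. *Hoxb2*, a hindbrain gene, was at 32.6, 36.0 and 32.5 TPM, *Hoxc6* at 11.0, 10.3 and 12.5 TPM and *Hoxd9* at 11.9, 11.0 and 12.2 TPM. Against M, from which the IM cells were made, 16 members rose in IM3 and 2 fell, where 9.26% of the genes tested were higher and 5.66% lower. The rises of *Hoxa4* (log2 fold change 5.25, SE 0.24, adjusted p = 9.96e-17), *Hoxa11* (log2 fold change 3.44, SE 0.17, adjusted p = 7.37e-16) and *Hoxa5* (log2 fold change 3.38, SE 0.20, adjusted p = 1.96e-14) were the largest, so that a posterior gene also rose from M, to 3.54, 3.47 and 3.6 TPM. *Hoxb1* (log2 fold change -3.36, SE 0.23, adjusted p = 5.99e-13) and *Hoxb8* (log2 fold change -1.45, SE 0.17, adjusted p = 2.12e-08) fell. The call of *Hoxb1* was lost without M replicate 1 (-3.32), that of *Hoxc8* without IM3 replicate 3 (1.00), that of *Hoxd8* without M replicate 1 (1.00) or IM3 replicate 3 (0.96), and that of *Hoxd11* without M replicate 3 (0.97) or IM3 replicate 3 (0.98). This comparison does not cross the division of the libraries by red-cell genes, though the sum of the 10 erythroid genes was 42.9 to 80.1 TPM in M and 118 to 190.3 in IM3, and its part in the result was not tested.

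Markers of other cell types moved with IM1 and IM3. The sum of the 4 endothelial genes was 124.9 to 135.9 TPM in IM1 and 44.2 to 52.1 in IM3, the sum of 10 erythroid genes 23.8 to 34.5 and 118 to 190.3, and their part in the *Hox* difference was not tested. Of 7 neural tube genes, 1 was at 1 TPM or more in all libraries of each of these conditions.

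With Activin A added to RA, posterior genes were higher and the 3′ genes of clusters A and C lower than with RA alone. In IM2 against IM3, 8 members rose and 8 fell, where 2.46% of the genes tested were higher and 1.34% lower. All 8 rises were in groups 9 to 13, and the falls were *Hoxa2*, *Hoxa3*, *Hoxa4*, *Hoxa5*, *Hoxc4*, *Hoxc5*, *Hoxc8* and *Hoxd4*. *Hoxd11* was at 6.7, 8.98 and 8.24 TPM in IM2 and 1.46, 1.29 and 1.45 in IM3, with a log2 fold change of 2.04 (SE 0.19, adjusted p = 2.62e-09). *Hoxa13* was at 11.6, 10.9 and 10.8 against 2.58, 3.08 and 2.84 TPM (log2 fold change 1.95, SE 0.12, adjusted p = 1.47e-12), and *Hoxa11* at 12.2, 13.9 and 12.5 against 3.54, 3.47 and 3.6 TPM (log2 fold change 1.89, SE 0.11, adjusted p = 2.44e-13). These were the 3 largest rises, and the libraries did not overlap. *Hoxa4* fell to 1.66, 1.76 and 1.86 TPM (log2 fold change -2.88, SE 0.19, adjusted p = 2.53e-12), *Hoxc5* to 0.67, 0.86 and 0.75 TPM (log2 fold change -2.54, SE 0.13, adjusted p = 2.29e-14) and *Hoxa2* to 1.51, 1.78 and 1.74 TPM (log2 fold change -2.23, SE 0.19, adjusted p = 3.00e-10). Cluster B from *Hoxb2* to *Hoxb9* had no DE gene in this comparison, with log2 fold changes from -0.51 for *Hoxb7* to 0.26 for *Hoxb8*. The call of *Hoxa9* was lost without IM2 replicate 2 (0.99), IM3 replicate 1 (0.92) or IM3 replicate 2 (0.96), and that of *Hoxd4* without IM2 replicate 1 (-0.99) or IM3 replicate 1 (-0.88). The sum of the 4 paraxial genes was 72.6 to 90.4 TPM in IM2 and 22.7 to 26.5 in IM3, and that of the 10 erythroid genes 7.81 to 8.95 and 118 to 190.3. The sum of the 7 neural tube genes was 41.1 to 50.8 and 20.8 to 24.3. Only 1 of these 7 was at 1 TPM or more in all libraries of each condition. The part of these markers in the result was not tested.

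The same addition in the presence of CHIR99021, IM5 against IM4, used 6 other libraries. Both comparisons cross the division of the libraries by red-cell genes in the same direction, with IM3 and IM4 on one side and IM2 and IM5 on the other. In neither can that division be told apart from Activin A, and the overlap of their calls shares this limit. In it 9 members rose and 7 fell, where 2.63% of the genes tested were higher and 1.46% lower. All 8 members that rose in IM2 against IM3 were among these 9, with *Hoxc9* as the other one, and 7 of the 8 that fell were the 7 that fell here. *Hoxd11* was at 8.62, 10.2 and 13.2 TPM in IM5 and 1.56, 1.22 and 1.25 in IM4, with a log2 fold change of 2.46 (SE 0.19, adjusted p = 4.89e-11). *Hoxa13* (log2 fold change 2.37, SE 0.12, adjusted p = 1.29e-14) and *Hoxa11* (log2 fold change 2.22, SE 0.10, adjusted p = 4.58e-15) followed, and *Hoxa4* (log2 fold change -3.27, SE 0.20, adjusted p = 4.94e-13), *Hoxc5* (log2 fold change -2.06, SE 0.12, adjusted p = 3.59e-13) and *Hoxa2* (log2 fold change -2.02, SE 0.19, adjusted p = 2.20e-09) fell most. IM5 replicate 1 had the lowest *Hoxa4*, at 0.52 TPM against 1.13 and 1.41 in the other libraries, and the call of *Hoxa5* was lost without it (-0.97). The sum of the 4 paraxial genes was 61.5 to 72.2 TPM in IM5 and 18.3 to 26.4 in IM4, and that of the 10 erythroid genes 16.4 to 18.5 and 161 to 284.7. The sum of the 7 neural tube genes was 36.4 to 45.9 and 18.3 to 22.4, again with only 1 at 1 TPM or more in all libraries of each condition. The part of these markers in the result was not tested.

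Set against IM1, from which it differed in RA and Activin A together, IM2 kept cluster B high at its 3′ end but was lower in cluster C and in 9 of the 16 genes of groups 9 to 13. In this comparison 4 members rose and 17 fell, where 1.94% of the genes tested were higher and 1.56% lower. The rises were those of *Hoxb2*, *Hoxb3*, *Hoxb4* and *Hoxa3*. *Hoxa4*, *Hoxa2* and *Hoxb1* were also higher past the p and fold limits, but under the count minimum. *Hoxa4* was at 1.66, 1.76 and 1.86 TPM against 0.29, 0.37 and 0.38, and *Hoxa2* at 1.51, 1.78 and 1.74 against 0.48, 0.66 and 0.59. In the same way *Hoxa6*, *Hoxc11*, *Hoxc12*, *Hoxc13*, *Hoxd1* and *Hoxd3* were lower. *Hoxb2* was at 36.9, 37.8 and 39.8 TPM against 17.3, 14.8 and 15.6 (log2 fold change 1.18, SE 0.0902, adjusted p = 5.04e-11), and *Hoxb4* at 10.1, 9.87 and 9.89 against 3.7, 3.62 and 3.85 TPM (log2 fold change 1.36, SE 0.11, adjusted p = 3.01e-10). *Hoxa3* had a log2 fold change of 1.31 (SE 0.16, adjusted p = 2.14e-07). The call of *Hoxb3* (1.06) was lost without IM1 replicate 3 (0.98). *Hoxc8* fell from 14.3, 11.3 and 13.7 to 1.85, 1.76 and 1.98 TPM (log2 fold change -2.85, SE 0.16, adjusted p = 1.17e-13), *Hoxc10* from 21.1, 22.6 and 22.1 to 4.4, 4.15 and 3.54 TPM (log2 fold change -2.51, SE 0.12, adjusted p = 3.08e-15), and *Hoxb8* had a log2 fold change of -2.46 (SE 0.16, adjusted p = 1.64e-12) and *Hoxc6* a log2 fold change of -2.46 (SE 0.11, adjusted p = 1.68e-15). *Hoxd11* was at 6.7, 8.98 and 8.24 TPM in IM2 and 7.99, 9.71 and 10.5 in IM1, with overlapping libraries and a log2 fold change of -0.25 (SE 0.17, adjusted p = 0.278). The sum of the 4 paraxial genes was 72.6 to 90.4 TPM in IM2 and 12.3 to 16.7 in IM1. That of the 7 neural tube genes was 41.1 to 50.8 and 15.5 to 21.5, with only 1 at 1 TPM or more in all libraries of each condition. That of the 4 endothelial genes was 70.7 to 75.6 and 124.9 to 135.9, and that of the 10 erythroid genes 7.81 to 8.95 and 23.8 to 34.5. The part of these markers in the *Hox* values was not tested. Cluster C as a whole summed to 96.5 ± 0.782 TPM in IM1, 19.0 ± 1.53 in IM2 and 32.1 ± 2.73 in IM3 (SD, n = 3).

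**Figure D4:**
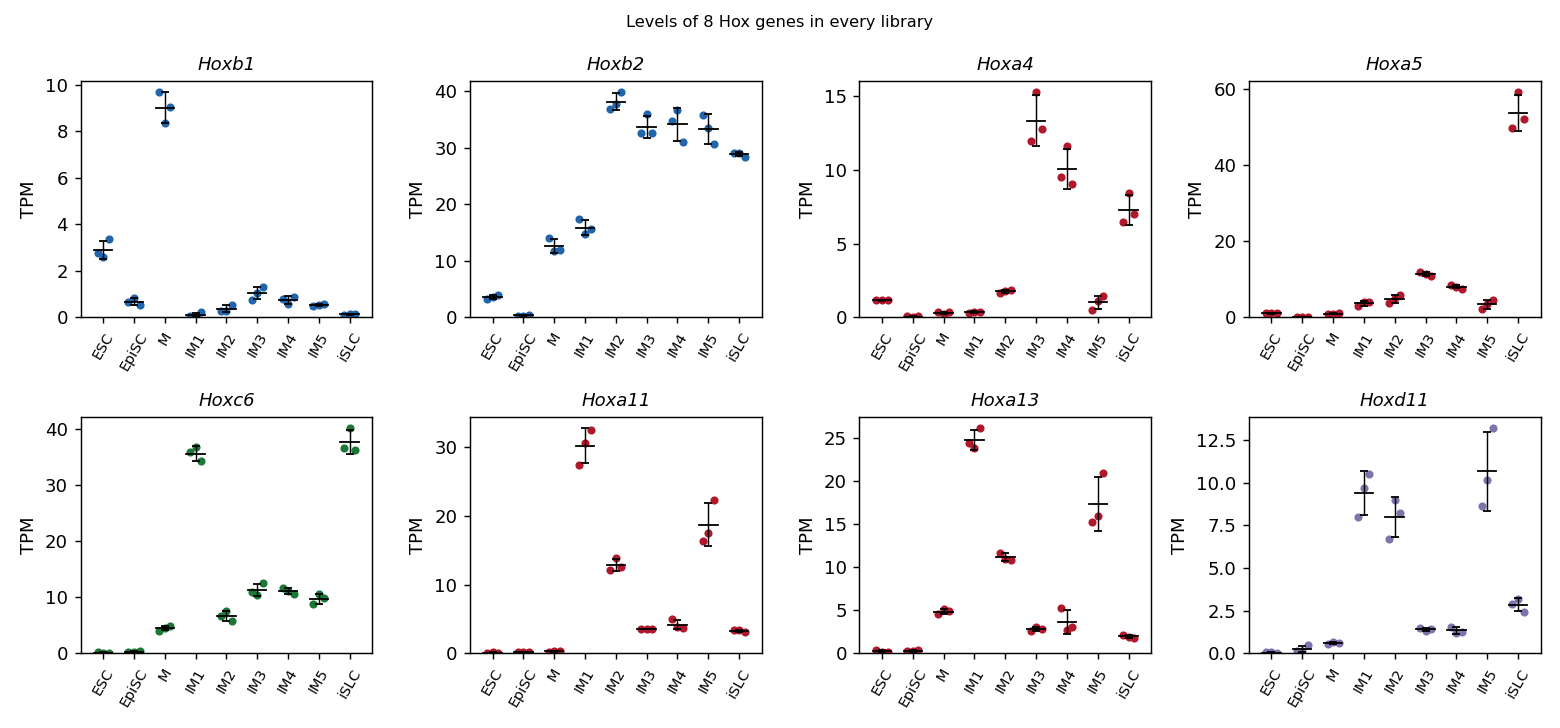
TPM of 8 members in every library, with points for libraries, black bars for means and whiskers for the SD (n = 3), each panel on its own linear axis from 0. *Hoxb1* peaks in M at 8.35 to 9.68 TPM, *Hoxa4* in IM3 at 12.0 to 15.2, *Hoxa5* in iSLC at 49.9 to 59.1, and *Hoxa11* and *Hoxa13* in IM1.

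No member was DE by edgeR at these limits when CHIR99021 was added, with or without Activin A. In IM4 against IM3, 0 members were called by edgeR and 0 by DESeq2, 6 had an unadjusted p under 0.05 beside 2517 of the 20839 genes tested, and 0.0% of the genes tested were higher and 0.101% lower. Among the 29 members at 1 TPM or more in both, log2 fold changes ran from -0.48 for *Hoxa2* to 0.40 for *Hoxb8*. *Hoxa5* was at 8.49, 8.07 and 7.55 TPM in IM4 and 12.0, 11.3 and 10.7 in IM3, with libraries apart and a log2 fold change of -0.46 (SE 0.15, adjusted p = 0.144). In IM5 against IM2, 0 were called by edgeR and 0 by DESeq2, 21 had an unadjusted p under 0.05 beside 4586 of all tested, and 0.0432% of the genes tested were higher and 0.192% lower. Of the 16 genes of groups 9 to 13, 16 had a positive value there, with a median of 0.56 against 0.001 for all genes tested. Without the 2-fold limit 7 were called, all higher in IM5: *Hoxa9*, *Hoxa11*, *Hoxa13*, *Hoxc6*, *Hoxc9*, *Hoxc10* and *Hoxd9*. The shares given above hold with the 2-fold limit, and the share of all genes tested without it is not given. *Hoxa13* was at 15.2, 15.9 and 20.9 TPM in IM5 and 11.6, 10.9 and 10.8 in IM2 (log2 fold change 0.66, SE 0.11, adjusted p = 1.54e-04), and *Hoxc10* at 5.59, 6.69 and 6.64 and 4.4, 4.15 and 3.54 TPM (log2 fold change 0.70, SE 0.12, adjusted p = 2.00e-04). IM5 replicate 3 was the highest in 5′ genes, with a sum of groups 9 to 13 of 144 TPM against 104 and 115 in the other libraries of IM5, and the SD of that sum in IM5 was 20.7 TPM. The interaction, which asks whether Activin A acted differently with CHIR99021, gave 0 members by edgeR and 0 by DESeq2 and 16 with an unadjusted p under 0.05 beside 2191 of all tested, where 0.0096% of the genes tested were higher and 0.024% lower. Its smallest adjusted p among the members was that of *Hoxd9*, with an interaction of 0.54 (log2, SE 0.13, adjusted p = 0.0482).

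In iSLC, 10 members rose from IM3 and 2 fell, where 10.3% of the genes tested were higher and 8.92% lower. The rises lay in clusters A, B and C, with 3 in groups 1 to 3, 5 in groups 4 to 8 and 2 in groups 9 to 13: *Hoxa2*, *Hoxa3*, *Hoxa5*, *Hoxa7*, *Hoxa9*, *Hoxb3*, *Hoxb8*, *Hoxb9*, *Hoxc4* and *Hoxc6*. *Hoxa5*, which acts in the cervical and thoracic region, was at 49.9, 59.1 and 52.1 TPM in iSLC and 12.0, 11.3 and 10.7 in IM3, with a log2 fold change of 2.26 (SE 0.15, adjusted p = 2.13e-13), and was the highest member of iSLC. *Hoxa9* was at 25.8, 20.7 and 24.1 TPM against 5.51, 3.61 and 6.26 (log2 fold change 2.19, SE 0.12, adjusted p = 2.31e-15), and *Hoxa7* at 9.64, 9.57 and 10.2 against 2.02, 2.59 and 2.58 (log2 fold change 1.97, SE 0.14, adjusted p = 1.30e-12). These were the 3 largest rises, and all iSLC libraries were above all IM3 libraries. *Hoxa6*, between *Hoxa5* and *Hoxa7*, was at 11.9, 11.2 and 11.2 TPM against 0.92, 0.72 and 0.52 but under the count minimum, with a log2 fold change of 4.00 ± 0.31. *Hoxa4* stood apart from its neighbours on both sides, at 6.47, 8.39 and 6.98 TPM in iSLC against 12.0, 15.2 and 12.8 in IM3, a value that passed the p limit but not the 2-fold limit (log2 fold change -0.85, SE 0.16, adjusted p = 4.97e-05).

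At the 5′ end of cluster A no member was DE. *Hoxa11* was at 3.33, 3.42 and 3.15 TPM in iSLC and 3.54, 3.47 and 3.6 in IM3 (log2 fold change -0.08, SE 0.12, adjusted p = 0.549), and *Hoxa13* at 2.18, 1.93 and 1.83 and 2.58, 3.08 and 2.84 TPM (log2 fold change -0.76, SE 0.14, adjusted p = 2.26e-05), past the p limit but not the 2-fold limit. Both falls were in cluster D: *Hoxd9* from 11.9, 11.0 and 12.2 to 3.84, 3.41 and 3.73 TPM (log2 fold change -1.66, SE 0.0975, adjusted p = 2.12e-14), and *Hoxd13* from 1.12, 0.97 and 1.83 to 0.36, 0.49 and 0.38 TPM (log2 fold change -1.64, SE 0.24, adjusted p = 8.42e-07). Cluster A held 43.5% ± 0.0637 of the summed *Hox* TPM in iSLC and 31.1% ± 1.00 in IM3 (SD, n = 3), and cluster D 6.76% ± 0.126 and 17.9% ± 1.63. *Hoxb1* ended at 0.08, 0.15 and 0.14 TPM. With an offset for the GC trend the split of 10 higher and 2 lower became 9 and 4, with *Hoxa4* and *Hoxa13* on the lower side. The calls of *Hoxa2* and *Hoxb8* were lost without IM3 replicate 1 (0.98 and 0.98), and that of *Hoxd13* without IM3 replicate 3 (-1.33). iSLC were sorted for CFP, and no sort is stated for IM3. Besides the lentiviruses, iSLC and IM3 also differed in medium, with Activin A in that of iSLC and RA in that of IM3, and in time in culture. The part of each in the result was not tested. The sum of the 4 endothelial genes was 2.54 to 3.24 TPM in iSLC and 44.2 to 52.1 in IM3, that of 4 paraxial genes 175.1 to 186.4 and 22.7 to 26.5, and that of the 10 erythroid genes 1.75 to 2.45 and 118 to 190.3, with 1 and 7 of the 10 at 1 TPM or more in all libraries. The part of these markers in the result was not tested either.

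**Figure D5:**
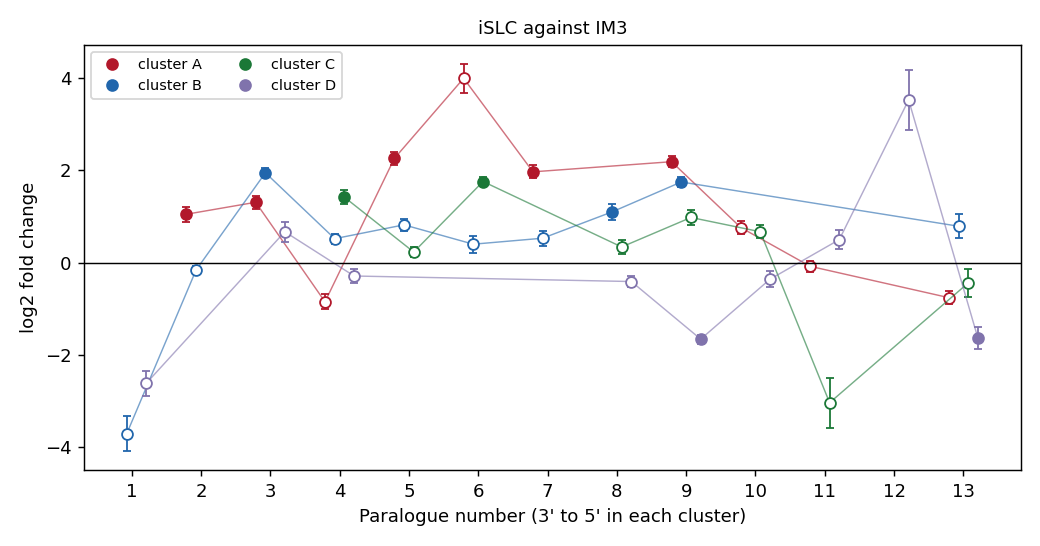
Log2 fold change of the members in iSLC against IM3 by paralogue number, with SE whiskers, 1 colour per cluster, filled points for DE genes and open points for the others (*Hoxc12* left out). Cluster A is above 0 from *Hoxa5* to *Hoxa10*, with 2.26 at *Hoxa5*, and cluster D is at -1.66 at *Hoxd9*.

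Non-coding RNAs of the clusters were looked up by name, outside the rule for named genes, and are given as levels with no test. *Hotairm1*, from the 3′ end of cluster A, was at 3.44, 4.09 and 4.95 TPM in IM1, 32.3, 36.3 and 30.4 in IM3, 17.5, 19.4 and 19.4 in IM2 and 47.6, 47.2 and 49.0 in iSLC, high where *Hoxa2* and *Hoxa3* were high. *Hoxa11os*, antisense to *Hoxa11*, was at 31.1, 34.5 and 33.8 TPM in IM1 and 2.56, 2.84 and 4.08 in IM3, close to *Hoxa11* itself in both. The genes share 800 exon bases, and reads of such partners may not have been told apart, so this closeness is uncertain. *Hottip*, from the 5′ end of cluster A, stayed at or under 1.07 TPM, and *Hotair*, from cluster C, at or under 0.59 TPM, in every library. Among the IM conditions *Hoxb3os* ranged from 1.54 TPM in IM1 to 7.25 in IM3 as means of 3 libraries, and it stayed at or under 0.38 TPM in ESC and EpiSC. It overlaps *Hoxb2* and *Hoxb3*, so its values are uncertain too.

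Partners and regulators of *Hox* genes were described from lists of gene names. Their counts stand beside the DE shares of all genes tested. In IM3 against IM1 these were 2.62% higher and 3.72% lower, and in IM2 against IM3 2.46% and 1.34%. In IM5 against IM4 they were 2.63% and 1.46%, and in iSLC against IM3 10.3% and 8.92%. Of 8 TALE genes, which encode proteins such as MEIS and PREP that bind DNA with Hox proteins, 2 rose and 0 fell in IM3 against IM1, with a median log2 fold change of 0.12 against 0.0 for all genes tested. *Meis1* was at 70.9, 72.3 and 73.8 TPM in IM3 and 9.77, 7.61 and 7.01 in IM1 (log2 fold change 3.03, SE 0.0995, adjusted p = 1.33e-18) and *Meis2* had a log2 fold change of 2.23 (SE 0.0828, adjusted p = 1.16e-17). In IM2 against IM3, 0 of the 8 were DE by edgeR and 0 by DESeq2, and 7 had an unadjusted p under 0.05, beside 9941 of the 20839 genes tested. The list gave 1 that rose in iSLC against IM3, namely *Pknox2* (log2 fold change 2.39, SE 0.0668, adjusted p = 3.09e-21). Of 11 caudal and trunk regulators, 0 rose and 2 fell in IM3 against IM1, 3 rose and 0 fell in IM2 against IM3, and 3 rose and 1 fell in IM5 against IM4. *Cdx2*, the caudal factor, was at 85.7, 94.1 and 92.7 TPM in M, 93.3, 99.9 and 111 in IM1, 16.4, 18.2 and 17.8 in IM2, 5.61, 4.57 and 4.57 in IM3, 25.2, 24.6 and 26.0 in IM5 and 0.09, 0.15 and 0.13 in iSLC. It fell in IM3 against IM1 (log2 fold change -4.45, SE 0.0875, adjusted p = 1.55e-22) and rose in IM2 against IM3 (log2 fold change 1.85, SE 0.0873, adjusted p = 8.21e-15), and *T*, the Brachyury factor of the tail bud, also changed in both (-4.86 ± 0.33 and 3.46 ± 0.40, log2 fold change ± SE).

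Of 10 genes of the RA response and its breakdown, 4 rose and 0 fell in IM3 against IM1, with a median of 0.66. Of all genes tested, 2.62% were higher and 3.72% lower there. *Rarb*, a receptor gene that RA switches on, was at 44.2, 47.0 and 47.9 TPM in IM3 and 1.16, 0.73 and 0.64 in IM1 (log2 fold change 5.71, SE 0.19, adjusted p = 2.45e-18), and *Cyp26b1*, which encodes an RA-degrading enzyme, had a log2 fold change of 4.60 (SE 0.30, adjusted p = 1.40e-12). In IM2 against IM3, where 2.46% of the genes tested were higher and 1.34% lower, only *Cyp26a1* was DE among the 10. It was higher in IM2 (log2 fold change 1.19, SE 0.14, adjusted p = 1.54e-07), and *Rarb* was at 27.5, 32.0 and 31.4 TPM in IM2. In iSLC 3 rose and 3 fell against IM3, where 10.3% of the genes tested were higher and 8.92% lower. *Rarb* was at 27.3 ± 0.838 TPM in iSLC (SD, n = 3). Of 15 Trithorax and Polycomb genes, which keep *Hox* genes on or off, 2 rose and 2 fell in M against EpiSC. There 6.79% of the genes tested were higher and 7.72% lower. In the 6 comparisons among IM conditions 0 were DE by edgeR and 0 by DESeq2, with list medians from -0.25 to 0.08, and 10 of the 15 had an unadjusted p under 0.05 in IM3 against IM1, beside 11600 of the 20839 genes tested. Of 13 genes next to the clusters, 1 rose and 1 fell in IM3 against IM1: *Skap2*, 3′ of cluster A, rose (log2 fold change 2.04, SE 0.0724, adjusted p = 5.15e-18), and *Evx1*, 5′ of the same cluster, fell (log2 fold change -3.53, SE 0.0975, adjusted p = 4.02e-20). In IM2 against IM3 *Evx1* rose (log2 fold change 2.01, SE 0.11, adjusted p = 5.91e-14).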

How the data were processed

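RNA of 27 libraries (9 groups of 3) was sequenced by the study. The reads were trimmed with cutadapt 1.9.1, aligned with STAR 2.5.2a to the mouse genome GRCm38 and quantified per gene with RSEM 1.3.0, per the study's methods and processing notes. The authors deposited expected counts, which RSEM estimates and which need not be whole, and the deposited TPM and FPKM values were scaled by the authors for effective length and library. Expected counts were rounded and tested with edgeR 4.0.16 (R 4.3.3), by the quasi-likelihood test after TMM scaling in one model of all groups, with Benjamini-Hochberg adjustment over the 20839 genes that passed the low-count filter. All 38 members passed it. DE required an adjusted p up to 0.01, a change of 2-fold or more, and a mean normalized count that reached 100 both across the series and in one of the compared groups. Levels are deposited TPM, and FPKM served only as an alternative for counting expressed members. Log2 fold changes come with the SE of the fitted model.

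The family, gene lists and tests were chosen with earlier results of these data known, and the members were then taken from the family by name. Values were given for the 3 DE members with the largest rise and the 3 with the largest fall in a comparison whose libraries did not overlap, for the highest member of each cluster in IM1 and IM3, for the most 5′ expressed member of each cluster, and for *Hoxb1*, *Hoxa5* and *Hoxd11*. Other members are described for their place in a cluster. Totals were 35923040 to 84876603 expected counts per library. All 27 pairs of libraries within groups differed by more than sampling noise. Replicate numbers paired the libraries only in IM4 against IM3, where same-numbered libraries deviated together (correlations across genes of 0.241, 0.235 and 0.345), a hint from the data and not from the labels. On simulated counts for IM3 against IM1, 100% of 200 genes changed 3-fold were recovered among 19780 genes, with 0 false calls. These counts were drawn from the mean rate of each gene over all libraries and the dispersion trend of the fit, with the same mean in all groups for the other genes. The changed genes were picked among those with a mean normalized count of 100 or more, and the calls used no count minimum. The simulation therefore checks the procedure and does not give the error rate in the real libraries. Alternatives were DESeq2 1.42.0, other size factors, offsets for effective length and GC content, other filters and thresholds, a replicate block, a fit of only the groups compared, and leaving out each library. GC content came from the GRCm38 reference. A further member of the family and 1 gene of the TALE list are not reported here.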

Additional observations from a re-analysis of the deposited data

How the results depend on the processing

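The number of DE members moved by more than 1.5 times under 2 choices. Without the count minimum it was 23 in EpiSC against ESC and 33 in M against EpiSC, against 3 and 17, and without the fold minimum it was 7 in IM5 against IM2 and 21 in iSLC against IM3, against 0 and 12. Both follow from the limits themselves, which these settings lift. The share of all genes tested that passed under these settings is not given. With the GC offset, alone or with the replicate block, iSLC against IM3 gave 9 higher and 4 lower in place of 10 and 2, and IM3 against IM1 gave 7 higher in place of 5, with *Hoxb2* and *Hoxb3* added. Expressed members in ESC were 12 at 0.5 TPM, 2 at 2 TPM and 2 at 1 FPKM in place of 7, and in EpiSC 3 at 0.5 TPM in place of 0, so levels near 1 TPM limit these counts. Leaving out each library in turn gave 2 to 4 DE members in EpiSC against ESC, 15 to 18 in M against EpiSC, 20 to 23 in IM1 against M, 15 to 18 in IM3 against M, 20 to 21 in IM3 against IM1, 21 to 22 in IM2 against IM1, 15 to 17 in IM2 against IM3, 15 to 16 in IM5 against IM4 and 10 to 13 in iSLC against IM3. The lowest value in EpiSC against ESC came without ESC replicate 3. The replicate block alone left the number of DE members as it was in each comparison, for example 20 in IM3 against IM1 and 0 in IM4 against IM3, the pair of groups whose numbers deviated together. In the other comparisons the libraries share only a number, and not every same-numbered pair correlated above 0.1. Of 1152 recomputed fold changes of DE members, over 144 results and without the settings that leave out a library, 9 lost their call and 0 changed sign, and of 864 with a library left out 22 lost it and 0 changed sign. Besides the calls given above, *Hoxb7* and *Hoxc4* in M against EpiSC and *Hoxd13* in iSLC against IM3 were lost with DESeq2, *Hoxd8* in IM3 against M and *Hoxd4* in IM2 against IM3 with the length offset, and *Hoxa9* in IM2 against IM3 and *Hoxb8* in iSLC against IM3 with the GC offset, and the cause was not tested.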
